A study of Mus musculus with 14 samples.

Results

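The T-box genes Tbx2, Tbx3, Tbx4 and Tbx5 lie as neighbours in pairs, Tbx2 with Tbx4 on mouse chromosome 11 and Tbx3 with Tbx5 on chromosome 5, and their chromatin was examined in mouse embryonic stem cells before and after loss of Smarcb1. They are 4 of the 21938 protein-coding genes annotated on chromosomes 1 to 19, X and Y. The 4 genes were chosen on measured values, because Tbx3 lost Smarca4 peaks and gained Ezh2 peaks after the knockdown; the other members were taken as its neighbour and as the related pair, and the counts of these peaks at Tbx3 are therefore given as a description. The cells were 81K1 mESC, a line derived from OG2 in which 1 clone (K1) carries a doxycycline-dependent shRNA against Smarcb1 in the Rosa26 locus. Control cells were untreated 81K1 cells carrying the same cassette, and Smarcb1 kd cells had received 1 µg/ml doxycycline for 72 h, so the drug and the knockdown cannot be told apart. ChIP-seq was made for the histone marks H3K4me3, H3K27ac and H3K27me3 and for the proteins Ezh2 and Smarca4. Each of these 5 antibodies gave 1 library in each condition, and 4 input libraries complete the 14 samples. Replicate error could therefore not be estimated and no test was made, and each difference below compares 2 libraries.

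Smarca4 is an ATPase of the BAF chromatin remodelling complexes, of which Smarcb1 is a core subunit. Ezh2 is the enzyme of Polycomb repressive complex 2 (PRC2) that places H3K27me3, a mark of silenced genes. In stem cells PRC2 sits mainly on CpG-rich stretches, and many promoters of developmental regulators carry H3K27me3 together with H3K4me3, the mark of promoters, a state called bivalent. H3K27ac marks active promoters and enhancers. T-box factors bind DNA through a shared domain. Both pairs arose by duplication of an ancestral pair, so that Tbx2 resembles Tbx3 and Tbx4 resembles Tbx5. Tbx2 and Tbx3 act mainly as repressors, and Tbx3 is also used by naive mouse embryonic stem cells. Tbx4 and Tbx5 are activators known for hindlimb and lung (Tbx4) and for forelimb and heart (Tbx5).

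The bases just upstream of the 4 genes are shown first, because the density of CpG, the dinucleotide on which PRC2 sites of these loci are compared below, differs among them. Each sequence holds the 250 bases before the GENCODE start or, where it lies further upstream within 1 kb, a RefSeq start, on the plus strand of mm10, on which all 4 genes are transcribed. Capitals mark CpG, and no UTR base is included.
Tbx2, chr11:85832301-85832550, plus strand: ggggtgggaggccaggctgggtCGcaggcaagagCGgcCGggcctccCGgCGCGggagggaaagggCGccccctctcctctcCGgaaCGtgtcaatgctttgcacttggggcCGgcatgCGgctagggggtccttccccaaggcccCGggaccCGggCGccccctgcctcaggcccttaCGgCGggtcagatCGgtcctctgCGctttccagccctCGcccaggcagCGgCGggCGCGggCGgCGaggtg
Tbx3, chr5:119670284-119670533, plus strand: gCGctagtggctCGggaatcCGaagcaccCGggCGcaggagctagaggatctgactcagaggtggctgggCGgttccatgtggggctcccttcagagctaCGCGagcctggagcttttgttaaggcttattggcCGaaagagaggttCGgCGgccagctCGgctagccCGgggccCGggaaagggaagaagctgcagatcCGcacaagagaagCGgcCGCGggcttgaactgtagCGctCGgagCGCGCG
Tbx4, chr11:85886117-85886366, plus strand: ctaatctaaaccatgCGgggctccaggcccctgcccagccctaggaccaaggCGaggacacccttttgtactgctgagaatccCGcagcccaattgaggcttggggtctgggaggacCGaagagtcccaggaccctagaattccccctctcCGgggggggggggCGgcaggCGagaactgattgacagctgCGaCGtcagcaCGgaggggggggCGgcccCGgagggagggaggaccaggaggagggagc
Tbx5, chr5:119831926-119832175, plus strand: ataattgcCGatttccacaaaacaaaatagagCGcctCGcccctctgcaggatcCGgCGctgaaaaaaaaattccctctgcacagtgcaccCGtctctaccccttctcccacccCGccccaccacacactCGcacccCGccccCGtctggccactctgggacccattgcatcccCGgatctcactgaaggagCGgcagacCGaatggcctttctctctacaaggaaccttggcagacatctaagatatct
The window of Tbx2 held 25 CpG and that of Tbx3 held 23, against 12 for Tbx4 and 13 for Tbx5. All 4 lay above the median of 8 CpG over the same window of all 21938 protein-coding genes.

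A gene region here is the annotated gene together with the 1 kb that precedes its transcription start site, or TSS. The Tbx2 gene region is chr11:85831551-85841948 (10.4 kb), the Tbx4 gene region chr11:85885422-85916097 (30.7 kb), the Tbx3 gene region chr5:119669669-119684724 (15.1 kb) and the Tbx5 gene region chr5:119831668-119885219 (53.6 kb), all in mm10. A locus covers both gene regions of a pair and the span between them, 84.5 kb for Tbx2-Tbx4 and 216 kb for Tbx3-Tbx5. Peaks of Smarca4 and Ezh2 carry a MACS2 score, a rank of strength derived from the p-value, and islands of the histone marks carry a SICER p-value. A region without 1 bp of overlap with the other condition's list of the same antibody is called control-only or kd-only, and any other region shared. A missing call is not a measured absence. The scores were not scaled between libraries, so the share of a list that scored lower is also given as a rank.

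The lists themselves changed between the libraries, which sets the frame for every count at the T-box genes. Smarca4 had 79014 peaks in control and 72339 in kd, and the bases covered in kd were 82.4% of those in control. Ezh2 had 6708 and 5364 peaks, but the median score was 72 in control and 124 in kd, the median width 354 and 736 bp, and the covered bases in kd were 147% of control. Of the 3434 control-only Ezh2 peaks 86.8% were at least 50% repeat-masked, against 4.45% of the 2651 kd-only peaks. H3K27me3 covered 74.1%, H3K27ac 109% and H3K4me3 133% of the control bases in kd. Of 6 stem cell marker genes, 5 had H3K4me3 over the TSS in each condition, the exception being Esrrb. H3K27ac lay over the TSS of 4 of these 6 in control, without Esrrb and Klf4, and of 5 in kd. Of 10 marker genes of other cell types 6 had H3K4me3 over the TSS and 0 had H3K27ac there, in each condition.

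Over both loci together Ezh2 peaks were more numerous after the knockdown and Smarca4 peaks fewer. Ezh2 had 12 peaks in control and 26 in kd, with 0 control-only and 15 kd-only peaks, and its covered length was 11 kb and 25.5 kb, so that kd held 232% of the control bases. Smarca4 had 43 and 36 peaks, with 19 control-only and 9 kd-only, covering 26.0 kb and 19.5 kb or 75.1% of control. H3K27me3 had 15 and 11 islands (247 kb and 202 kb, 82.0% of control), with 5 control-only and 0 kd-only, and 1 control-only at a minimum −log10 p of 20. H3K27ac had 2 and 8 islands (4.40 kb and 14.5 kb), and 1 and 4 at a minimum −log10 p of 10. H3K4me3 had 5 and 8 islands but covered less in kd, 23.2 kb and 18.5 kb or 79.9% of control, and its kd count was 5 at a minimum −log10 p of 20 and with both lists cut to equal length. The kd share of the control cover was 174% for Ezh2 in Tbx2-Tbx4 and 336% in Tbx3-Tbx5, which holds the gene chosen for its Ezh2 gain. The list-wide 147% is not a like basis for these shares. Of all Ezh2 peaks 45.9% in control and 3.24% in kd were at least 50% repeat-masked, whereas all 12 and 26 of the loci were under 50%. List-wide, peaks under 50% numbered 3626 in control and 5190 in kd, with median widths of 513 and 755 bp. The bases they covered were not counted.

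**Figure D1:**
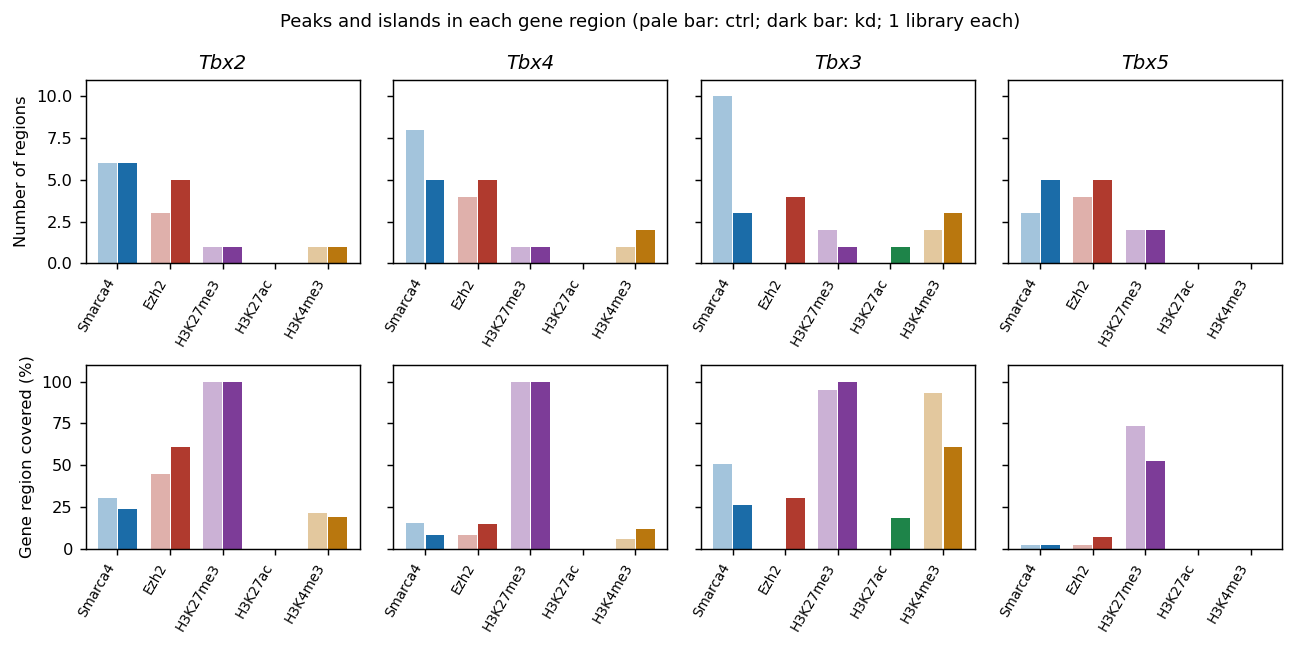
Number of peaks or islands (top row) and percent of bases covered (bottom row) in the gene regions of Tbx2, Tbx4, Tbx3 and Tbx5 for each of the 5 antibodies, with a pale bar for the control (ctrl) library and a dark bar for the kd library (1 library each, no error bars). Ezh2 cover is higher in kd at all 4 genes, and Tbx3 goes from 0 to 30.1%.

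All 4 gene regions had at least 1 kd-only Ezh2 peak, which 8.69% of protein-coding gene regions had, and all 4 had at least 1 control-only Smarca4 peak, which 34.2% had. Both counts include Tbx3, which was chosen for these changes, and are a description. Kd-only Smarca4 peaks (32.5% of gene regions) occurred at Tbx5. Control-only Ezh2 peaks (5.07%) were found at 0 of the 4. Control-only and kd-only H3K27me3 islands (16.4% and 5.79%) and control-only islands of H3K27ac (11.6%) and H3K4me3 (3.28%) were also found at 0 of the 4. Kd-only H3K27ac (33.1%) was listed at Tbx3 and kd-only H3K4me3 (14.2%) at Tbx4. Fewer Smarca4 and more Ezh2 peaks after kd were counted at Tbx3 and Tbx4, a combination found in 3.48% of gene regions and part of the choice of Tbx3.

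Tbx2, Tbx3 and Tbx4 belong to a class of gene regions in which control-only Smarca4 and kd-only Ezh2 peaks were more frequent than over all protein-coding gene regions. Of the 5089 protein-coding gene regions with both H3K27me3 and H3K4me3 islands in both conditions, 57.0% had a control-only Smarca4 peak, 31.2% a kd-only Ezh2 peak and 12.4% fewer Smarca4 with more Ezh2 peaks. Of the 2992 of them without Ezh2 in control, 35.3% had an Ezh2 peak in kd. Tbx5 had no H3K4me3 island in its gene region in either list.

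Tbx3 had 10 Smarca4 peaks in control and 3 in kd, and 0 Ezh2 peaks in control and 4 in kd; these are the values for which it was chosen. Smarca4 covered 50.5% of the gene region in control and 26.0% in kd, and Ezh2 covered 0% and 30.1%. A first Ezh2 peak after kd was found in 5.96% of all protein-coding gene regions. A loss of at least 7 Smarca4 peaks was counted in 465 gene regions and a gain of at least 4 Ezh2 peaks in 26. These cutoffs are the differences of Tbx3 itself, for which it was chosen, so the counts are a description and no measure of rarity. Both were met by Tbx3 and by 1 other gene, Bcor, which encodes a corepressor (34 to 26 Smarca4 and 5 to 15 Ezh2 peaks); Bcor is named because the count is small, after its values were seen.

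**Figure D2:**
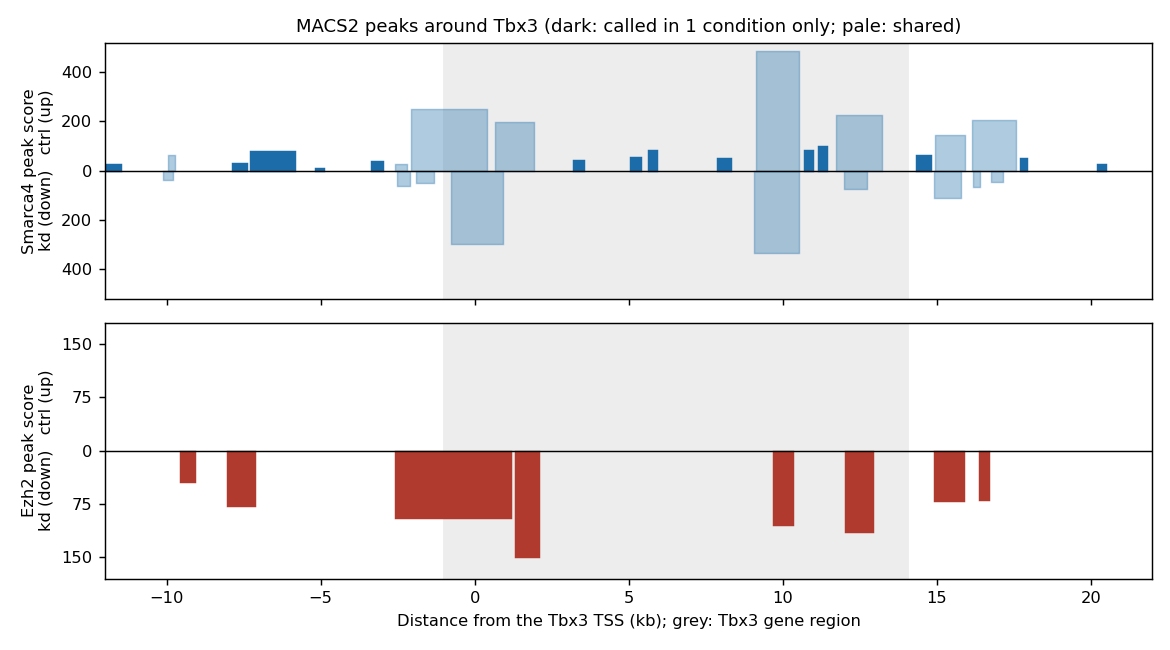
MACS2 scores of the Smarca4 (top) and Ezh2 (bottom) peaks around Tbx3 against distance from the TSS in kb, with control upwards and kd downwards, the gene region in grey, and dark bars for peaks called in 1 condition and pale bars for shared peaks. In the gene region the 6 control-only Smarca4 peaks score between 44 and 102, and the 4 shared ones between 196 and 486.

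The 10 control Smarca4 peaks of Tbx3 fell into strong peaks that stayed and weaker ones that were not called in kd. The strongest, in a coding exon at chr5:119679793-119681182, scored 486 in control, above 99.2% of the list, and the kd peak on it scored 332, above 96.1%. The peak over the TSS, chr5:119668616-119671056, scored 249, and the kd peak chr5:119669889-119671586 scored 296, above 94.4% of its list. A shared peak at chr5:119682381-119683874 scored 228, and the kd peak on it 74, so its rank went from 91.9% to 57.0%. The TSS and the exon thus kept strong Smarca4 peaks, while the peak near the gene's end lost rank. The fourth shared peak, chr5:119671324-119672605 (score 196), overlapped the kd peak over the TSS.

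The 6 control-only Smarca4 peaks lay inside the gene, 3.37 to 11.3 kb from the TSS. Their scores were 44 at 3.37 kb, 57 at 5.22 kb, 86 at 5.77 kb, 51 at 8.09 kb, 85 at 10.8 kb and 102 at 11.3 kb. The strongest of them, chr5:119681820-119682120 in an intron, stood above 70.5% of the control list. Whether a limit of detection played a part in the missing kd calls was not tested. Their median score was 71 and median width 326 bp, against 238.5 and 1442 bp for the 4 shared peaks. Over the whole genome the 34674 control-only Smarca4 peaks (43.9% of the list) had a median score of 49 and a width of 321 bp, against 94 and 610 bp for the shared ones, so the order is the same.

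The 4 kd Ezh2 peaks of Tbx3 each overlapped a shared control Smarca4 peak, and 3 of the 4 also overlapped a kd Smarca4 peak. The first, chr5:119668073-119671860, spanned the TSS over 3788 bp with a score of 95, above 38.9% of the kd list. The next, chr5:119671964-119672755, the strongest with a score of 150, began past the end of the kd Smarca4 peak over the TSS and so lay mostly on bases where Smarca4 was called in control alone. A peak in a coding exon at chr5:119680350-119681004 scored 105, and the last, chr5:119682686-119683582, scored 114. These are middling ranks, between 38.9% and 55.1% of the list. Of the 10 control Smarca4 peaks, the 4 shared ones all overlapped a kd Ezh2 peak, whereas 0 of the 6 control-only ones did. Of the kd Ezh2 bases in the gene region 90.8% lay in control Smarca4 peaks and 68.0% in kd Smarca4 peaks, against 73.1% and 65.2% over all chromosomes.

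Counted over the whole loci, Tbx3 included, the split was less complete. In Tbx3-Tbx5 9 of 13 shared control Smarca4 peaks and 1 of 13 control-only ones overlapped a kd Ezh2 peak. In Tbx2-Tbx4, where Ezh2 was present in control, it was 11 of 11 shared and 3 of 6 control-only peaks, so Smarca4 peaks not called in kd did lie under Ezh2 there. Over all chromosomes the shares were 12% of the 44340 shared and 1.70% of the 34674 control-only Smarca4 peaks. Against kd-only Ezh2 peaks alone the counts were 8 of 13 and 1 of 13 in Tbx3-Tbx5 and 4 of 11 and 0 of 6 in Tbx2-Tbx4. The bases that Smarca4 covered in control alone were not free of Ezh2. In the Tbx3 gene region 1.30 of 4.03 such kb, or 32.3%, lay in a kd Ezh2 peak. They belonged to shared control peaks, which the kd Smarca4 peaks covered only in part.

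The sequences under the Tbx3 peaks differed in CpG in the same way. The observed over expected CpG ratio, the number of CpG set against the number that the base composition would give, had a median of 0.13 in the 6 control-only Smarca4 peaks, 0.66 in the 4 shared ones and 0.65 in the 4 Ezh2 peaks. The control-only peaks were not uniform, since the one at 3.37 kb in a coding exon had a ratio of 0.65. Genome-wide medians were 0.24 for control-only and 0.47 for shared Smarca4 peaks, and 0.75 for kd-only Ezh2 peaks. The central 250 bases of the 3 strongest control-only Smarca4 peaks, all in introns, are shown against those of a kd-only Ezh2 peak in a coding exon and of the strongest kd-only Ezh2 peak, also in a coding exon, with CpG in capitals.
Control-only Smarca4 peak, score 102, chr5:119681845-119682094, plus strand: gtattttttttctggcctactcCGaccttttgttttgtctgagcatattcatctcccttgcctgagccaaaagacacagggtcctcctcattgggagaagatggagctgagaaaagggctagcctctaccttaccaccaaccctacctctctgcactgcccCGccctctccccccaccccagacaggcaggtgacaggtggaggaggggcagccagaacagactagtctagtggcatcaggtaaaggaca
Control-only Smarca4 peak, score 86, chr5:119676312-119676561, plus strand: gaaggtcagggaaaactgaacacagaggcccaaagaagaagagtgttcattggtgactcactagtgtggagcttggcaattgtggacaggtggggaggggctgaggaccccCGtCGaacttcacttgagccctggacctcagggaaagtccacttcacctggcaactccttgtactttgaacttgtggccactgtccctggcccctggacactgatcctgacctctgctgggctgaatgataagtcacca
Control-only Smarca4 peak, score 85, chr5:119681375-119681624, plus strand: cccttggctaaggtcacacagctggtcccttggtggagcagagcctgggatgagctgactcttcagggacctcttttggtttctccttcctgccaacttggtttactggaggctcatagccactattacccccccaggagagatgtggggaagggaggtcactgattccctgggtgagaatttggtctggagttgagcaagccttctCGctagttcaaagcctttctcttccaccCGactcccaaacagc
Kd-only Ezh2 peak, score 105, chr5:119680552-119680801, plus strand: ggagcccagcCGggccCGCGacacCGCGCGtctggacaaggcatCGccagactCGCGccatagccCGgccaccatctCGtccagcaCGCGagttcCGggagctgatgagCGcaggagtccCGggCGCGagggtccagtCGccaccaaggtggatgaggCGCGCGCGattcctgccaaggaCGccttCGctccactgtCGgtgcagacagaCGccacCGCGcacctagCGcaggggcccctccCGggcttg
Kd-only Ezh2 peak, score 150, chr5:119672235-119672484, plus strand: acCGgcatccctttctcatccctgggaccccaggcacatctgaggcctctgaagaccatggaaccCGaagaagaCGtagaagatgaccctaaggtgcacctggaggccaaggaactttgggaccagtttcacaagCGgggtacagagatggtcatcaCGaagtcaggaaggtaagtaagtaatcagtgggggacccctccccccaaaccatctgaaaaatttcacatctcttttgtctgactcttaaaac
Each of the 3 Smarca4 windows held 2 CpG. The Ezh2 window at chr5:119680552-119680801 held 31, on GC-rich exon sequence, but that of the strongest Ezh2 peak held 5. A further window that is not printed, chr5:119683009-119683258 in the Ezh2 peak of score 114, held 6. A high CpG count was thus not the rule among these new Ezh2 windows.

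**Figure D3:**
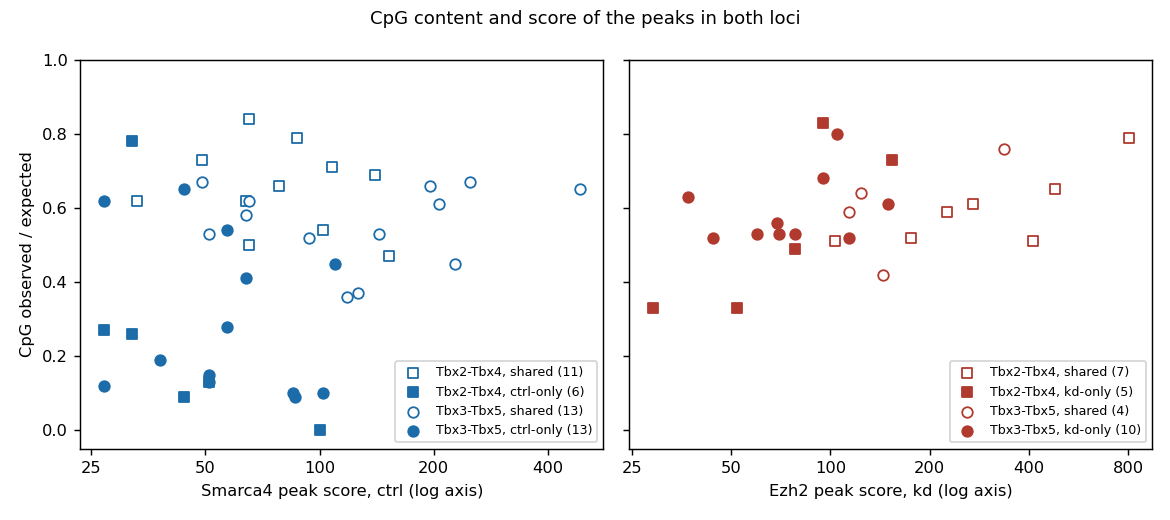
Observed over expected CpG ratio against MACS2 score (log axis) for control Smarca4 peaks (left) and kd Ezh2 peaks (right) of both T-box loci, squares for Tbx2-Tbx4 and circles for Tbx3-Tbx5, filled for peaks called in 1 condition and open for shared peaks. Control-only Smarca4 peaks have a median ratio of 0.19 in each locus, and shared control peaks have 0.66 in Tbx2-Tbx4 and 0.58 in Tbx3-Tbx5.

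The histone marks at Tbx3 changed as well, and its H3K4me3 contracted. In control 2 broad H3K4me3 islands, chr5:119668001-119678600 and chr5:119679601-119687800, covered 93.4% of the gene region. In kd 3 islands, chr5:119668601-119676000, chr5:119680201-119681600 and chr5:119682401-119683800, covered 60.7%, and of the control bases 65.0% were still covered, against 77.4% genome-wide. The island over the TSS ranked above 92.3% of the control list and above 67.7% of the kd list. The Tbx3 loss therefore ran against the whole H3K4me3 list, which covered more of the genome in kd.

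H3K27me3 was already present at Tbx3 before Ezh2 was called there. In control it covered 94.7% of the gene region in 2 islands with a gap of 0.8 kb between chr5:119639401-119679400 and chr5:119680201-119697200. In kd 1 island, chr5:119639801-119697600, covered 100% of the gene region. The gap in control overlapped the strongest Smarca4 peak of the gene, the peak on which Ezh2 was called in kd at chr5:119680350-119681004. An H3K27ac island over the TSS, chr5:119669601-119672400, was called in kd alone, with a p-value of 4.52e-08 and a rank above 19% of the list, and it was not kept at a minimum −log10 p of 10. H3K27ac, H3K27me3, H3K4me3 and Ezh2 were thus all listed over the Tbx3 TSS in kd. Whether they lie on the same molecules cannot be told from separate libraries.

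**Figure D4:**
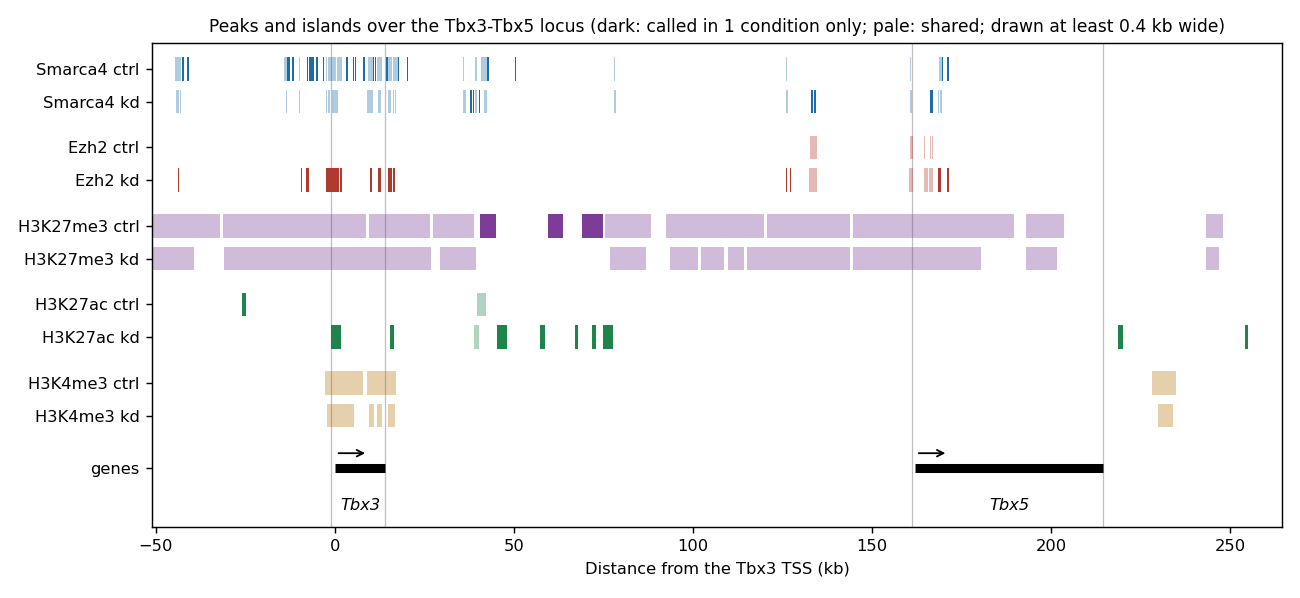
Map of the Tbx3-Tbx5 locus with its 50 kb flanks, peaks and islands of the 5 antibodies in control and kd against distance in kb, dark where called in 1 condition and pale where shared, drawn at least 0.4 kb wide. Smarca4 calls drop out around Tbx3, 6 in the gene and 9 in the flank before it, and 14 Ezh2 peaks stand in the kd locus against 5 in control.

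The change at Tbx3 extended beyond the gene. In the 50 kb before the gene region Smarca4 had 14 peaks in control and 7 in kd, with 9 control-only, and covered 17.3% and 4.98%, while Ezh2 had 0 and 4 peaks. The peaks over the TSS, 1 control Smarca4 and 1 kd Ezh2 peak, reach into this flank and are counted in the gene region as well. The antisense gene Tbx3os1 overlaps the Tbx3 promoter and this flank, and its gene region had 25 and 8 Smarca4 and 1 and 5 Ezh2 peaks; ChIP has no strand, so the peaks over the shared start cannot be assigned to either gene. Downstream, over the lincRNA gene Tbx3os2, Ezh2 peaks at chr5:119685589-119686549 (score 70) and chr5:119687039-119687365 (score 69) were called in kd alone, each again on a shared Smarca4 peak.

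In the span from Tbx3 to Tbx5 Smarca4 peaks were exchanged rather than lost, H3K27me3 thinned and H3K27ac appeared. Smarca4 had 13 and 15 peaks with 5 control-only and 5 kd-only. H3K27me3 covered 80.1% and 65.7%. Over the whole locus kd held 81.4% of the control H3K27me3 bases, against 74.1% over all chromosomes, so the locus lost a smaller share than the list. The 3 control-only H3K27me3 islands of the span, chr5:119711201-119715600, chr5:119730201-119734400 and chr5:119739601-119745400, all lay in the stretch where H3K27ac was called in kd. H3K27ac had 1 island in control and 7 in kd, of which 6 were kd-only, covering 1.63% and 8.03% of the span. The one with the lowest p-value, 4.85e-16, was chr5:119715801-119718800. Of these 6 islands 4 were at least 50% repeat-masked, up to 90.2%, and the part of repeats in the calls was not tested. In the Tbx3-Tbx5 locus 50.5% of the kd H3K27ac bases lay in control H3K27me3 islands and 35.3% in kd ones, where H3K27me3 covered 79.5% and 64.7% of the whole locus. Genome-wide the shares were 3.46% and 2.11%, so H3K27ac lay in H3K27me3 less than the cover of this locus and more than elsewhere.

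Ezh2 in the Tbx3-Tbx5 span was 2 peaks in control and 6 in kd. The strongest site of the locus, chr5:119803202-119805382, was centred 28.4 kb before the Tbx5 TSS, with scores of 171 and 336. Its centre was intergenic, and the end of the control peak reached into the lincRNA gene 1700021F13Rik. The kd-only Smarca4 peaks chr5:119803505-119804220 (score 63) and chr5:119804451-119804863 (score 42) were called over it, so here Smarca4 appeared on Ezh2-bound sequence. A kd-only Ezh2 peak of score 37 was called at chr5:119796633-119796895, where Smarca4 had peaks in both conditions, of scores 65 and 61. RefSeq models of Tbx5 start at chr5:119796514, 36.2 kb before the GENCODE start, so this may be read as an upstream Tbx5 start or as intergenic sequence.

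Tbx5 kept a Polycomb pattern without promoter marks. Its GENCODE starts had H3K27me3 in both conditions and no Smarca4, H3K4me3 or H3K27ac call, and Ezh2 was called over the start at position 119836155 in kd. Ezh2 had 4 peaks in control and 5 in kd and covered 2.16% and 7.01% of the gene region. The control scores were 59 and 80 at -1.12 and 2.66 kb and 44 and 25 at 4.35 and 4.80 kb. The kd peaks on them scored 124, 144 and 114, the last joining the control peaks of 44 and 25. The new Ezh2 peaks, chr5:119839086-119839994 (score 44) and chr5:119841604-119841969 (score 60), lay inside the gene. The second overlapped a control-only Smarca4 peak of score 27, the exception to the split in this pair.

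Smarca4 at Tbx5 was sparse and changed position. It had 3 peaks in control, of scores 51, 57 and 27, and 5 in kd, of scores 48, 35, 74, 35 and 23, with 2.34% and 2.16% of the gene region covered. The first of the kd peaks, chr5:119831370-119831678, reached the gene region with its end alone, and the control peak it overlapped, chr5:119831162-119831617, ended before it. The kd-only peaks at 4.36 and 4.77 kb lay on Ezh2 peaks shared by both conditions. With a minimum score of 50 the counts were 2 in control and 1 in kd, which turns the direction of this difference. H3K27me3 covered 73.4% of the gene region in control and 52.2% in kd, while the cover of this mark did not decrease at the other genes. The Tbx5 region kept 71.0% of its control H3K27me3 bases, near the 74.1% of the whole list. H3K27ac had 0 islands in both conditions.

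**Figure D5:**
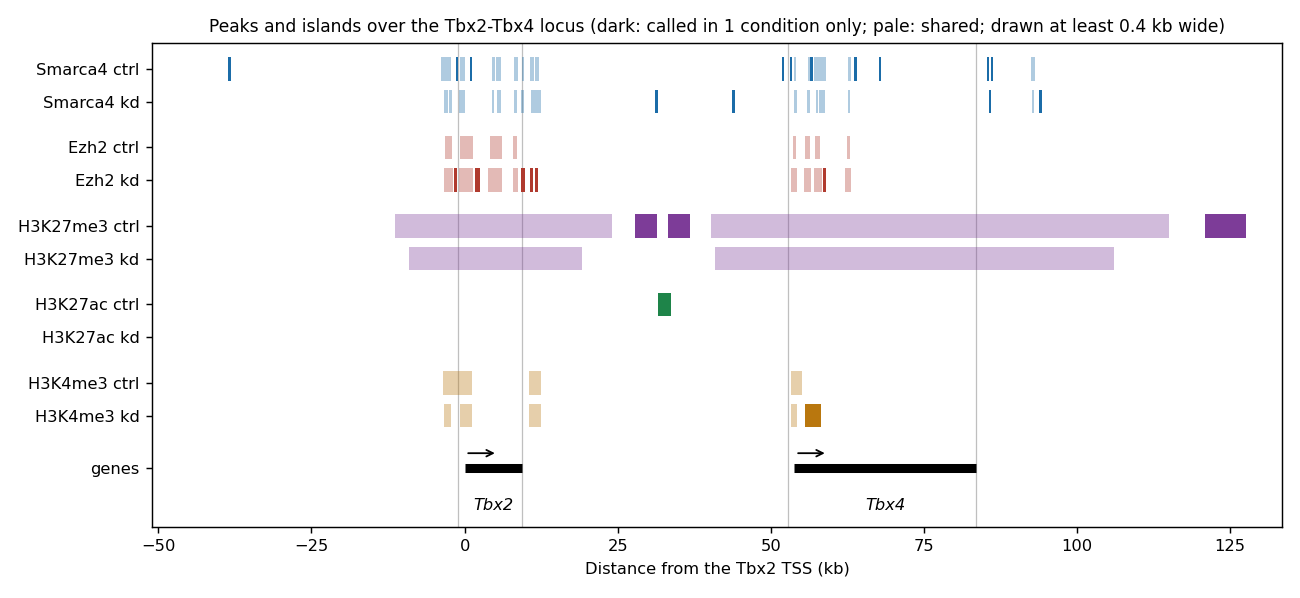
Map of the Tbx2-Tbx4 locus with its 50 kb flanks, drawn as for the other pair, peaks and islands of the 5 antibodies in control and kd against distance in kb. Ezh2 rises from 7 to 12 peaks and every control Ezh2 peak is shared, while H3K27me3 is lost from the middle of the span.

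Tbx2, the relative of Tbx3, differed from it in having strong Ezh2 peaks before the knockdown. The peak over the TSS, chr11:85831802-85833898, scored 370 in control and 803 in kd, above 96.5% and 96.6% of the lists. Peaks at 5.15 and 8.27 kb scored 355 and 253 in control and 480 and 270 in kd. The first site kept its rank and the others fell in rank, to above 88.3% and 73.4% of the kd list. Kd-only Ezh2 peaks were called at chr11:85834323-85835050 (score 52), in a coding exon, and at chr11:85841703-85842358 (score 154), at the gene's end, and Ezh2 cover went from 44.7% to 60.7%.

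Smarca4 stayed at Tbx2, where 6 peaks were called in each condition. The covered share was 30.2% in control and 23.7% in kd, and the single control-only peak, 1.08 kb inside the gene, scored 32, above 9.77% of the list. Near the TSS the control peak chr11:85831782-85832612 scored 140, and the kd list held 2 peaks on it, of scores 23 and 148. H3K27me3 covered 100% of the gene region in both conditions, H3K27ac had 0 islands, and H3K4me3 over the TSS ranked above 68.8% of the control list and 83.2% of the kd list. The control H3K4me3 island chr11:85829001-85833800 was split into 2 in kd, with a gap before the start. The non-coding gene 2610027K06Rik, on the minus strand, overlaps this promoter, and the peaks there cannot be assigned to either gene.

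Tbx4 lost Smarca4 peaks without losing its Ezh2 sites. Smarca4 had 8 peaks in control and 5 in kd, 4 of them control-only, and covered 15.2% and 8.37%. The peak over the TSS, chr11:85886291-85886639, scored 102, and the kd peak that overlapped it, chr11:85886468-85886776, scored 25 and began past the TSS, so Smarca4 was called over this TSS in control and not in kd. The control-only peaks scored 27, 51, 44 and 100 at -0.590, 2.75, 9.93 and 13.9 kb. The last, in an intron, is shown because it is the strongest and its central 250 bases held 0 CpG.
Control-only Smarca4 peak of Tbx4, score 100, chr11:85900217-85900466, plus strand: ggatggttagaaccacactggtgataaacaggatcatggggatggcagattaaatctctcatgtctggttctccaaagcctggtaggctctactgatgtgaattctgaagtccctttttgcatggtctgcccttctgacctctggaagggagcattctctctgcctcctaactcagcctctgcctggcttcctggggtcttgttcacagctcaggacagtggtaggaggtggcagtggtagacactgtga

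Ezh2 at Tbx4 had 4 peaks in control and 5 in kd, and its cover went from 7.99% to 15.0%. The 4 shared sites, at 0.0510, 2.14, 3.82 and 8.82 kb, scored 45, 85, 139 and 49 in control. In kd they scored 103, 175, 412 and 226, higher at every site. The ratio was 2.96 at the strongest and 4.61 at the last. Smarca4 scores moved both ways at the shared sites of the gene. The strongest, chr11:85889530-85891485, scored 153 in control, and the stronger kd peak on it scored 100. The sites at 2.34 and 9.03 kb scored 33 and 64 in control and 50 and 111 in kd.

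H3K4me3 at Tbx4 was called at a further start inside the gene in kd and narrowed over the first. A kd-only H3K4me3 island, chr11:85888201-85890800, with a p-value of 5.53e-15, covered the annotated start at position 85890063, and the island over the first TSS was 1800 bp wide in control and 1000 bp in kd. This was the only H3K4me3 island called in 1 condition over the 2 loci, and at a minimum −log10 p of 20 there was none. H3K27me3 covered 100% of the gene region in both conditions, and H3K27ac had 0 islands.

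Between Tbx2 and Tbx4 an unannotated element carried promoter-type marks in both conditions. The H3K4me3 island chr11:85843001-85845000 had the same ends in both lists, with a rank above 33.5% in control and 61.1% in kd, and Smarca4 peaks lay on it in both, of scores 65 and 87 in control and 111 in kd. Kd-only Ezh2 peaks were called there at chr11:85843313-85843782 (score 78) and chr11:85843976-85844530 (score 95). The central bases of the second are shown as an example of new Ezh2 on CpG-rich sequence outside the genes, with 24 CpG in capitals.
Kd-only Ezh2 peak in the Tbx2 to Tbx4 span, score 95, chr11:85844128-85844377, plus strand: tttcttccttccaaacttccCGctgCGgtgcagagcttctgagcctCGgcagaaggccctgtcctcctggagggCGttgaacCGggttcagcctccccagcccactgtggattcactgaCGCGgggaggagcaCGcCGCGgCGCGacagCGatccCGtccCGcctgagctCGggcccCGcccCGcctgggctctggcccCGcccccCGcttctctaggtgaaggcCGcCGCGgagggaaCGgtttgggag
Over the whole span Smarca4 had 4 peaks in each condition, Ezh2 0 and 3, and H3K27me3 covered 79.3% and 50.3%. The 2 control-only H3K27me3 islands stood on either side of the control-only H3K27ac island chr11:85864201-85866200, which was 72.0% repeat-masked.

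The scores of the Ezh2 sites called in both conditions were higher in kd at both pairs, as they were genome-wide. In Tbx2-Tbx4 7 of 7 control peaks had a higher kd score, with a median ratio of 2.17 and a median width ratio of 1.49. In Tbx3-Tbx5 it was 5 of 5, with 2.10 and 3.28. Over all chromosomes 94.5% of 3274 shared control peaks were higher, with a median ratio of 2.87 and a width ratio of 1.93. The median score ratios of both pairs thus lay below that of the list, while the width ratio lay below it in Tbx2-Tbx4 and above it in Tbx3-Tbx5. Shared Smarca4 peaks set the pairs apart: 3 of 13 had a higher kd score in Tbx3-Tbx5 (median ratio 0.75), 7 of 11 in Tbx2-Tbx4 (1.16) and 50.6% of 44340 genome-wide (1.02). This difference between the pairs was not tested.

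The 13 other T-box genes were counted in the same way. Of them 8 had Ezh2 in both conditions and 5 had none in control, and 0 had a first Ezh2 peak in kd, a call found in 5.96% of all gene regions, so the count does not set Tbx3 apart. Ezh2 peaks were more numerous in 4 and fewer in 2, against more in 4 of the 4 members, and Smarca4 peaks were more numerous in 3 and fewer in 3. Fewer Smarca4 with more Ezh2 peaks were counted at Tbx1, a heart and pharyngeal gene (Smarca4 10 to 4, Ezh2 4 to 7), and at Tbx15, a skeletal gene (7 to 4 and 5 to 6). Eomes, a T-box gene of early mesoderm and endoderm, had fewer of both (5 to 2 and 2 to 1). Fewer Ezh2 peaks did not mean less cover: the Ezh2 cover of Eomes went from 21.3% to 29.8%. At T, the other gene with fewer Ezh2 peaks, it went from 15.0% to 21.3%, and both genes had 0 control-only Ezh2 peaks. Over all protein-coding genes Smarca4 peaks were more numerous in 4824 and fewer in 5642, and Ezh2 peaks more numerous in 1660 and fewer in 1147.

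A further list held 10 genes of naive pluripotency, the programme in which stem cells use Tbx3, of which 3 had H3K27me3 in control. Smarca4 peaks were fewer at 2 and more numerous at 4 of them, and fewer Smarca4 with more Ezh2 peaks were counted at 0, against 3.48% of all gene regions, which likewise does not set Tbx3 apart. Prdm14, a repressor of differentiation, had a first Ezh2 pattern of 0 and 2 peaks with H3K27me3 over 41.9% and 43.3% of its region. Klf4 had H3K27me3 over 28.5% of its region in control and 0% in kd.

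The protein-coding genes most like each member were sought in the pattern of all 10 covered fractions. The measure was the Euclidean distance over the 10 lists, among genes of 0.5 to 2 times the member's length. Tbx3 was nearest to Bmp4, a BMP ligand (distance 0.303; Smarca4 60.4% and 25.2%, Ezh2 0% and 39.1%), then Mycl (0.465) and Sp9 (0.478), against a median of 1.708 over 8615 candidates. Tbx2 was nearest to Pitx1 (0.116) and Six3 (0.163), and Tbx4 to Hoxd4 (0.067), Wnt3 (0.070) and Dmbx1 (0.075). Tbx5, whose long region had low cover of every antibody but H3K27me3, was nearest to Spata18 (0.082), Crhr2 (0.087) and Duox1 (0.092). These distances use the Smarca4 and Ezh2 cover on which Tbx3 was chosen.

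The T-box core sequence AGGTGTGA, or TCACACCT on the other strand, was rare in these peaks. It was searched on both strands in the central 300 bp of every Smarca4 and Ezh2 peak of both loci and found in 1 site, the strong Ezh2 peak of the Tbx3-Tbx5 span, in control and in kd. The 100 bases around it, chr5:119804145-119804244, are shown with the match in capitals.
Span Ezh2 peak with the T-box core, chr5:119804145-119804244, plus strand: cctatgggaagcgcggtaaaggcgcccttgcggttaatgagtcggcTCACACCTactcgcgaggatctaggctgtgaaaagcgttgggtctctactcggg
Over the whole lists the sequence was in 0.507% and 0.559% of Ezh2 peaks and in 1.36% and 1.15% of Smarca4 peaks, in control and kd, and in 1.02% of the 250-base windows before protein-coding genes. A match of letters is no evidence of binding.

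Among the nearest protein-coding genes outside the loci, Bcas3, 5.49 kb before the Tbx2-Tbx4 locus, had 10 Smarca4 peaks in control and 1 in kd, and Med13l, 904 kb before Tbx3, had 25 and 15. On the other sides Brip1, 142 kb after Tbx4, had 2 and 3, and Rbm19, 230 kb after Tbx5, had 1 and 3. Ezh2 was listed at Brip1 alone among these, with 1 peak in control and 0 in kd. In the 50 kb after Tbx5 neither Smarca4 nor Ezh2 had a peak, and the H3K4me3 island there lay wholly on repeat-masked sequence.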

How the data were processed

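ChIP-seq was carried out with 5 antibodies in untreated and doxycycline-treated 81K1 cells, with 4 input samples that were not analysed here. Per the study's methods, immunoprecipitation and sequencing for Smarca4 and H3K27me3 were done by Active Motif, and the other immunoprecipitations by the authors' laboratory with sequencing at a core facility. The authors trimmed reads with Trim Galore, aligned them to mm10 with Bowtie2 and kept unique alignments with SAMtools 1.9. The deposited MACS2 lists (Smarca4, Ezh2) give a score per peak, and the deposited SICER lists give a p-value per island, with a highest value of 9.99e-06 for H3K27ac and 9.97e-11 for the other marks. Methods and labels differ on whether input or IgG served as background. The lists hold no read counts, and the methods give only a nominal depth, for Ezh2, H3K27ac and H3K4me3. The depth reached in each library is therefore unknown and values are not scaled between libraries.

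Chromosomes 1 to 19, X and Y were kept, and their regions were intersected with GENCODE M21 gene regions in Python 3.11.15 and numpy 2.4.6, at a minimum overlap of 1 bp. The interval code was tested on simulated data and recovered 200 of 200 control-only and 150 of 150 kd-only regions. CpG and repeat-masked shares were read from mm10, whose chromosomes hold every listed region. No read-level test was possible. Named genes were the members, 13 other T-box genes, 10 naive pluripotency genes, neighbouring genes and the 3 most similar genes per member, of which 1 is not reported here. The members and lists were chosen with earlier results of these data known.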

Additional observations from a re-analysis of the deposited data

How the results depend on the processing

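With 1 library per antibody and condition no replicate could be left out, and depth limits every missing call to an unknown degree. No paired analysis was possible because each group holds 1 library and no test was made. Of 120 counts over both loci under the alternatives, 93 stayed within 1.5 times the value reported and 27 did not. Of 80 differences per gene region 55 kept their size, 24 moved and 1 reversed, the Smarca4 difference (kd minus control) at Tbx5, which was -1 with the stricter threshold. Many of the 55 were differences of 0. Those of H3K27ac at Tbx2, Tbx4 and Tbx5 and of H3K4me3 at Tbx5 had no island in either list, so their place among the 55 is no sign of stability. Neither the 12 and 26 Ezh2 peaks nor the 15 kd-only Ezh2 peaks left the range of 1.5 times, except on merging. Merging regions within 1 kb left 23 control and 21 kd Smarca4 peaks and 16 kd Ezh2 peaks. With the stricter threshold (score of 50, −log10 p of 10 for H3K27ac and 20 for the other marks) there were 22 kd and 5 kd-only Smarca4 peaks, 1 control-only H3K27me3 island, 1 control, 4 kd and 4 kd-only H3K27ac islands, and 5 kd and 0 kd-only H3K4me3 islands. Applied to the region itself only, it left 11 control-only and 3 kd-only Smarca4 peaks, 1 control-only H3K27me3, 3 kd-only H3K27ac and 0 kd-only H3K4me3 islands. With lists of equal length 4 kd and 3 kd-only H3K27ac and 5 kd and 0 kd-only H3K4me3 islands were left. Without regions at least 50% repeat-masked H3K27ac had 1 control, 0 control-only, 4 kd and 3 kd-only islands. Widening the loci by 50 kb gave 32 control-only Smarca4 peaks and 2 control-only H3K27ac islands, and requiring 50% of the length to overlap gave 2 control-only H3K27ac islands.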
